A study of Mus musculus with 1920 samples.

Results

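The Wnt target genes of crypt base cells described here were 10 named genes, Axin2, Ascl2, Sox9, Myc, Cd44, Tnfrsf19, Tcf7, Nkd1, Phlda1 and Igfbp4, chosen by name out of 55471 gene identifiers in the count table. Their Ensembl identifiers were matched to symbols, and all 10 were found and passed the filter on low counts. They were measured in single intestinal stem cells (ISCs) of the small intestine, sorted from 3 young and 4 aged mice and sequenced by a Smart-seq2 method, which amplifies full-length cDNA of each cell. All mice carried the allele B6.129P2-Lgr5tm1(cre/ERT2)Cle/J, a knock-in that places a green fluorescent protein and a tamoxifen-inducible Cre under control of the Lgr5 locus, so the sorted cells carry a modified copy of Lgr5 in both age groups, and the sort took the cells with high fluorescence. The labels give age only as young or old and name no treatment of these mice. Of 1920 cells, the 1836 with at least 1000 detected genes were used, and the mouse was the replicate.

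In the crypt base, Wnt ligands and R-spondins act on Frizzled, Lrp and Lgr receptors, which stabilises beta-catenin. Beta-catenin enters the nucleus, binds TCF and LEF factors and turns on target genes, several of which feed back on the pathway or mark the stem cell compartment. Axin2 and Nkd1 are targets that restrain the pathway, Ascl2, Sox9, Myc and Tcf7 encode transcription factors, Cd44 and Tnfrsf19 encode cell surface proteins, Phlda1 encodes an intracellular protein and Igfbp4 a secreted binding protein of insulin-like growth factors.

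Promoter sequence was available in RefSeq (build GRCm38.p6) for 7 of the 10 genes, and Sox9, Myc and Phlda1 had no entry. The 250 bases before each annotated start were searched on both strands for the TCF/LEF letters CTTTGAA or CTTTGAT and CTTTGTA or CTTTGTT, with overlapping matches counted separately. Of 32851 such windows of all genes 14.8% held at least 1 match, and 1 of the 9 windows of these genes did. The window with the match belonged to Tnfrsf19, the gene with the largest age difference among the 10, and it is printed for that reason. It lies at chr14:61037988-61038237 on the minus strand, before the second RefSeq start of the gene, in an intron of 2 of its 5 annotated transcripts and within Gm41168, a lincRNA annotated on the opposite strand. The match, in capitals, is the reverse complement of CTTTGAT and begins 202 bases before the start. The match describes these letters only.
Tnfrsf19: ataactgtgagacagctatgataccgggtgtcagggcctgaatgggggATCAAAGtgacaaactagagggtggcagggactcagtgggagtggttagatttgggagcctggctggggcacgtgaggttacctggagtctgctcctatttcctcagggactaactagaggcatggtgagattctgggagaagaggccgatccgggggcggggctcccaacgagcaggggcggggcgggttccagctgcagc

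Each mouse contributed 49447464 to 134408884 reads on genes, with a median of 305492 reads and 9398.5 detected genes per cell. Lgr5, the gene behind the sort, was read in 90.3% to 99.4% of cells per mouse, with 337, 416 and 451 normalised CPM (counts scaled to the sequencing depth of each mouse) in the young mice and 361, 311, 177 and 338 in the aged mice. Each cell was also classed by which of 8 marker lists had the highest mean level, and 1564 cells were led by the ISC list. These ISC-led cells made up 86.2%, 93.5% and 92.6% of cells in the young mice and 88.9%, 74.7%, 79.9% and 74.9% in the aged mice. The remaining cells were led mainly by Paneth (142 cells), enterocyte (74) and goblet (38) markers, and no cell was led by the immune list. A code in each cell name, shared by 384 cells, was read as the sequencing lane, since the study's methods give that number of cells per lane. The labels do not say what the code is, and cells were also sorted into plates of that many wells. By this code there were 5 lanes, of which 3 held mice of both ages.

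Per kilobase of exon, the members spanned from Ascl2, a transcription factor of ISC identity, at 81.6 ± 12.1 CPM per kb (SD, n = 7 mice) to Nkd1 at 2.16 ± 0.84 CPM per kb. Myc stood at 69.0 CPM per kb, Sox9 at 62.2 and Igfbp4 at 60.6, and the ranges of these neighbours over mice overlapped. Axin2 followed at 41.8 CPM per kb, below Igfbp4 in 7 of 7 mice. A gap separated Axin2 from Cd44 at 18.8 CPM per kb, since the lowest Axin2 value over mice (28.8) lay above the highest Cd44 value (26.3). Phlda1 (14.0 CPM per kb) and Tnfrsf19 (11.3) came next with overlapping ranges. Tcf7 (2.89 CPM per kb) and Nkd1 were the lowest, and their order held in 5 of 7 mice.

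Between the sorted cells of young and aged mice, none of the 10 genes passed the test across all genes (edgeR quasi-likelihood test on counts summed per mouse, Benjamini-Hochberg adjusted p under 0.05), which called 0% of the 20957 genes tested. DESeq2 called 0.848% of genes and limma voom 0.00954%, again with 0 of the 10. At an unadjusted p under 0.05 edgeR gave 1 of the 10, Tnfrsf19, against 5.24% of all genes. The estimates were below 0 (lower in aged mice) for 8 of the 10 genes, against 48.3% of all genes, and for 7 of the 10 in ISC-led cells alone. The 10 genes were chosen with earlier results of these data known, so these counts are descriptions without a test. Their median log2 fold change was -0.17, beside 0.01 for all genes tested, and it was -0.31 without aged mouse 1 and -0.11 without young mouse 1. In counts summed over cells, fewer cells that express a gene and less RNA per cell cannot be told apart, so shares of cells are given further on.

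Tnfrsf19, a TNF receptor family member also known as Troy that marks ISCs, had the largest difference. Its level was 72.1, 69.2 and 84.0 CPM in young mice 1 to 3 and 68.3, 24.6, 22.2 and 33.9 CPM in aged mice 1 to 4. The groups did not overlap, as was so in either direction for 5.62% of all genes, but aged mouse 1 stood within 1 CPM of young mouse 2 while the other 3 aged mice lay below all others. The log2 fold change, aged minus young, was -1.01 (SE 0.35, edgeR unadjusted p = 0.0177, adjusted p = 0.81). Leaving out young mouse 3 took the unadjusted edgeR p to 0.0531. Aged mice 2 to 4, in which Tnfrsf19 was low, also had the lowest shares of ISC-led cells. Of the ISC markers, 8 of 10 had lower estimates in aged mice, against 48.3% of all genes, with summed levels of 17553 to 21037 CPM in young and 14372 to 23577 CPM in aged mice. Enterocyte markers had higher estimates in aged mice for 8 of 9 genes, with summed levels of 775 to 973 CPM in young and 813 to 2079 CPM in aged mice. Enteroendocrine markers were higher for 9 of 10 genes (8.87 to 140 CPM in young and 95.5 to 617 CPM in aged mice), goblet markers for 8 of 8 (386 to 1149 CPM and 618 to 3026 CPM), Paneth markers for 7 of 9 (8368 to 28706 CPM and 13960 to 31056 CPM) and tuft markers for 7 of 9. Every marker in these lists had reads. An unadjusted p under 0.05 in edgeR was found for 6 enterocyte, 4 enteroendocrine, 2 ISC, 1 goblet, 0 Paneth and 0 tuft markers, against 5.24% of all genes. In ISC-led cells alone the log2 fold change of Tnfrsf19 was -0.97, with 79.1, 74.3 and 88.5 CPM (mean over cells) in young mice and 69.6, 25.4, 30.0 and 36.6 CPM in aged mice.

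Cd44, the other surface protein and a hyaluronan receptor, had 132, 178 and 124 CPM in young mice and 114, 112, 89.6 and 143 CPM in aged mice. Aged mouse 4 stood above 2 of the young mice and the other 3 aged mice stood below all young mice. The log2 fold change was -0.33 (SE 0.20, edgeR adjusted p = 1.00).

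Of the feedback inhibitors, Axin2, a scaffold of the beta-catenin destruction complex, had 206, 252 and 258 CPM in young mice and 304, 201, 159 and 231 CPM in aged mice. The highest and the lowest mouse were both aged, and the log2 fold change was -0.09 (SE 0.22). Nkd1, which antagonises Dishevelled, had 10.5, 9.81 and 16.3 CPM in young mice and 12.9, 7.16, 6.09 and 6.01 CPM in aged mice. Aged mouse 1 lay among the young mice and the other 3 below them (log2 fold change -0.60, SE 0.33). A transcript antisense to Axin2, Gm11670, held 9.91% as many reads as Axin2, and whether the counting used strand is not given in the sources used here.

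Among the transcription factors, Ascl2 had 153, 135 and 121 CPM in young mice and 151, 107, 150 and 111 CPM in aged mice. A pair of aged mice lay just under the highest young mouse and the other pair lay below every young mouse, and the log2 fold change of -0.07 (SE 0.18) turned positive in ISC-led cells (0.01). Sox9, which is expressed in ISCs, Paneth cells and other crypt cells, had 342, 197 and 295 CPM in young mice and 265, 207, 241 and 253 CPM in aged mice. All aged values lay within the range of the young mice (log2 fold change -0.20, SE 0.20).

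Myc, a driver of cell growth, had 166, 174 and 185 CPM in young mice and 303, 159, 151 and 176 CPM in aged mice. Aged mouse 1 stood far above the other 6 mice, which covered a narrow range, and without it the log2 fold change went from 0.17 (SE 0.25) to -0.11. Tcf7, itself a member of the TCF family, had 5.55, 7.54 and 5.07 CPM in young mice and 8.13, 4.80, 17.4 and 4.57 CPM in aged mice. The high value of aged mouse 3 rested on few cells, since 1 of its cells held 41.8% of its Tcf7 reads, and 1 cell of aged mouse 1 held 50.8%. Both cells were ISC-led and had no read of the T cell genes Cd3e and Cd3g. They held 10 and 9 reads of Lgr5 among 1127944 and 1081563 reads, and 19135 and 8344 reads of the ISC marker Olfm4. What these cells are was not tested. The log2 fold change of 0.53 (SE 0.47) became -0.05 without aged mouse 3, and the transcript antisense to Tcf7, A630014C17Rik, held 6.13% as many reads.

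Phlda1, a pleckstrin homology protein found in crypt base cells, had 50.7, 28.2 and 27.3 CPM in young mice and 32.8, 26.2, 30.2 and 20.6 CPM in aged mice. Young mouse 1 stood apart from the other 6 mice, and the log2 fold change of -0.37 (SE 0.26) became -0.02 without it. The transcript Gm28592 on the opposite strand, which lies within Phlda1, held 58.6% as many reads as Phlda1. The level of Phlda1 is therefore uncertain, whether or not strand was used in the counting. Igfbp4 had 238, 310 and 300 CPM in young mice and 377, 264, 179 and 206 CPM in aged mice, with an aged mouse at both ends (log2 fold change -0.14, SE 0.25).

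**Figure D1:**
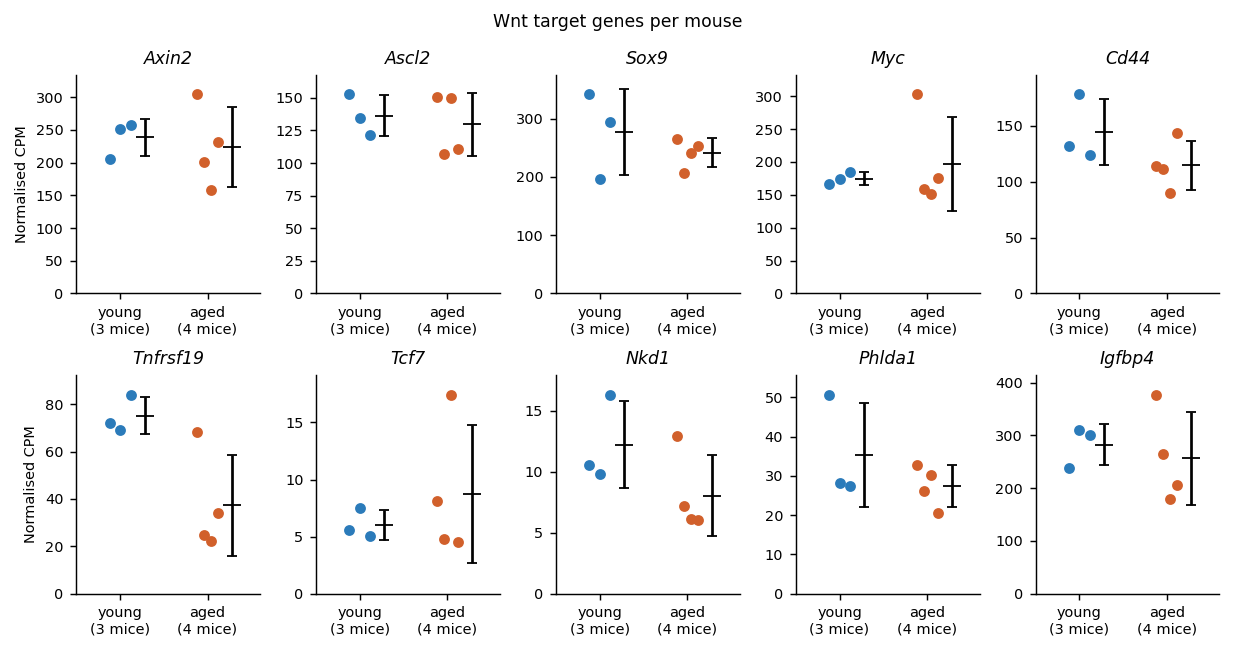
Normalised CPM (y axis, from 0) of each Wnt target gene in the 3 young (blue) and 4 aged (orange) mice, 1 point per mouse in order of its number, with the group mean and SD in black. Tnfrsf19 is the gene whose groups do not overlap, Myc shows 1 aged mouse at 303 CPM and Tcf7 1 aged mouse at 17.4 CPM.

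**Figure D2:**
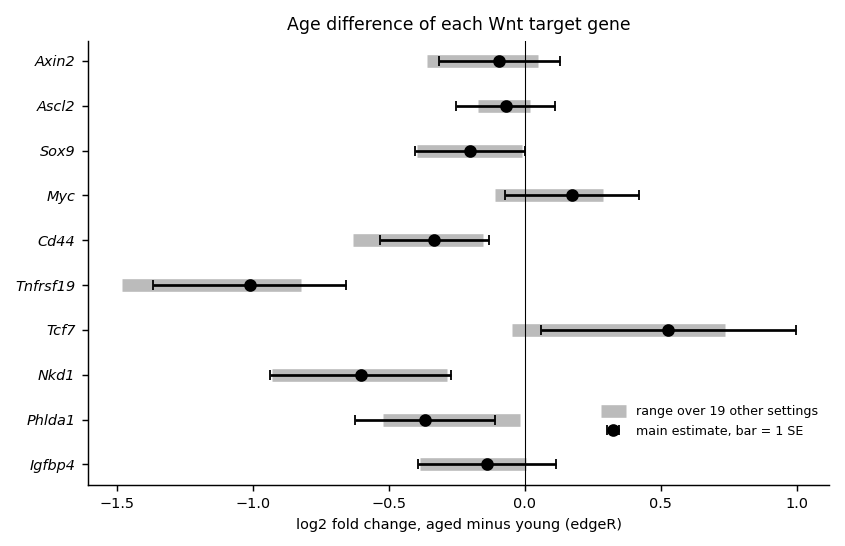
log2 fold change, aged minus young, of each gene (x axis) with 1 SE from edgeR, over a grey bar for the range across 19 other settings, which are 12 other tools, filters or cell sets and 7 fits that leave out 1 mouse. Tnfrsf19 lies lowest at -1.01, and the grey bars of 5 genes (Tnfrsf19, Cd44, Nkd1, Phlda1 and Sox9) stay below 0.

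When each cell of a mouse counted equally rather than by its reads, all 10 genes had lower estimates in aged mice and 5 (Tnfrsf19, Cd44, Sox9, Phlda1 and Axin2) had an unadjusted p under 0.05 in limma, against 5.45% of 15342 genes that did so and were lower in aged mice. None of the 10 passed the adjustment, which 0.0652% of genes passed. In that setting the median log2 fold change was -0.38 for the 10 genes and -0.08 for all genes.

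Within the 3 lanes that held both ages, Cd44 and Tnfrsf19 were lower in the aged mouse each time, against 15.8% of 20218 genes that were lower in all 3. Cd44 differed by -0.64, -0.70 and -0.55 on the log2 scale in the lanes of aged mice 1, 2 and 3, and with lane as a term its log2 fold change was -0.63 (edgeR unadjusted p = 0.000666, adjusted p = 0.34). Young mouse 3 (124 CPM of Cd44) and aged mouse 4 (143 CPM) were each alone in a lane. The estimate with lane as a term therefore rests on the same 3 lanes and adds nothing from these mice. Tnfrsf19 differed by -0.30, -1.20 and -1.66 in the same lanes. In its 2 lanes, young mouse 2 itself had 84.6 and 58.3 CPM of Tnfrsf19, but 179 and 183 CPM of Cd44. Young mouse 2 served as the comparison in 2 of the lanes, so the 3 differences are not independent. The other 8 genes had differences of both signs, among them Tcf7, which ranged from -0.68 to 1.49, and Myc, which ranged from -0.14 to 0.77.

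**Figure D3:**
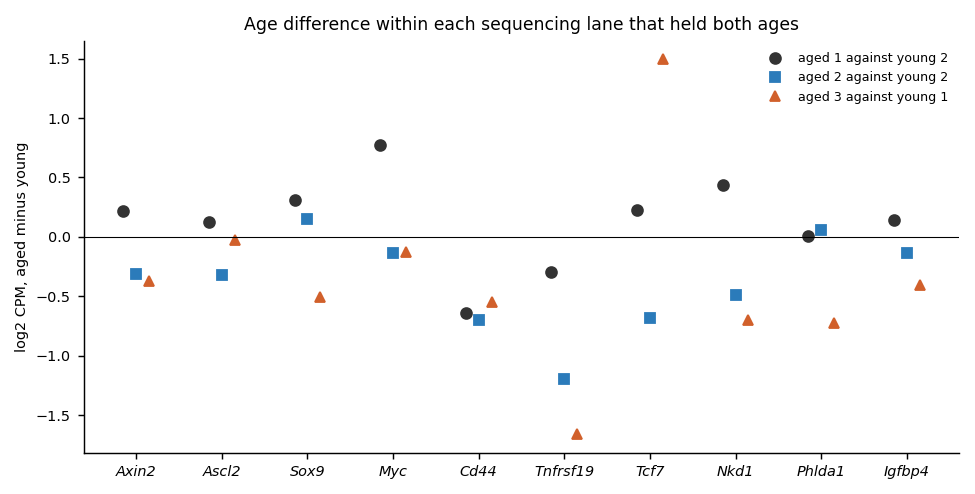
Difference in log2 CPM, aged minus young, for each gene within the 3 lanes that held both ages, 1 point per lane and no error bar, since each lane holds 1 mouse of each age. Cd44 points lie close together between -0.70 and -0.55, and Tnfrsf19 points spread from -1.66 to -0.30.

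The shares of cells with a read were compared after each of 1732 cells was thinned to 100000 reads. Tnfrsf19 was read in 70.5%, 76.1% and 80.4% of cells in young mice and in 71.1%, 53.6%, 48.3% and 57.8% in aged mice. Aged mouse 1 again lay within the young range and the other 3 below it. The means were 75.7% ± 4.93 in young and 57.7% ± 9.73 in aged mice (SD, n = 3 and 4, exact permutation p = 0.0857 over 35 divisions of the mice, two-sided, where 0.0286 is the smallest p they can give). Cd44 was read in 94.6% ± 2.78 of cells in young and 91.5% ± 1.31 in aged mice (SD, n = 3 and 4, exact permutation p = 0.0571). Thinning to 50000 reads used 1796 cells, so both the depth and the set of cells changed. The difference in Cd44 then grew from -3.10 to -6.67 percentage points and that in Sox9 from -0.20 to -2.39. Each was at the smallest possible exact permutation p of 0.0286. At 100000 reads the share was lower in aged mice for 9 of the 10 genes, whereas it was higher for 59.2% of all genes. In ISC-led cells alone Ascl2, Sox9, Myc and Tcf7 had higher shares in aged mice. Over the 10 genes in all thinned cells the median difference was -1.15 percentage points, beside 0.38 for all genes. This median was -2.19 without aged mouse 1, -1.90 without young mouse 1, -3.12 when cells were thinned to 50000 reads and -4.87 when at least 5 reads were required. At 100000 reads no member had groups of mice without overlap in these shares, which 6.37% of all genes had. At 50000 reads the groups of Cd44 and Sox9 did not overlap, since the smallest possible p arises only then. The percentage of all genes without overlap at that depth was not counted. Axin2, Sox9 and Igfbp4 were read in nearly every cell (92.6% to 100% per mouse), whereas Tcf7 was read in 20.2% to 28.7% and Nkd1 in 17.3% to 29.8%.

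Per cell, the median number of the 10 genes with a read was 8 in each young mouse and aged mouse 1 and 7 in aged mice 2 to 4. Cells with 8 or more made up 57.5%, 66.5% and 63.2% of cells in young mice and 62.0%, 49.7%, 48.3% and 48.1% in aged mice. Cell-to-cell spread, the SD over thinned cells of log2(CPM + 1), showed no gene with separate groups, against 6.58% of all genes. The largest difference was that of Axin2, with a spread of 1.23 ± 0.21 in young and 1.56 ± 0.26 in aged mice (SD, n = 3 and 4, exact permutation p = 0.114). Nkd1 went the other way, with 2.22 ± 0.24 in young and 1.92 ± 0.21 in aged mice (SD, n = 3 and 4, exact permutation p = 0.143). Sox9 had the same mean spread of 1.40 in both groups.

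The genes were not evenly distributed over the sorted cells. In Paneth-led cells, 7 of the 10 genes (Axin2, Ascl2, Sox9, Myc, Cd44, Tnfrsf19 and Igfbp4) had a lower mean CPM than in ISC-led cells in 7 of 7 mice. Tnfrsf19 differed most, with 25.4 to 88.5 CPM over mice in ISC-led cells and 5.85 to 15.4 CPM in Paneth-led cells. Sox9, which Paneth cells need to form, differed least of the 7, with a median log2 ratio of -0.99. Mean CPM of Nkd1 and Tcf7 was lower in 5 of 7 mice each and that of Phlda1 in 6 of 7. The order of Nkd1 and Tcf7 depended on the measure, since after thinning Nkd1 was read in 36.4% of 121 Paneth-led and 21.6% of 1503 ISC-led cells, and Tcf7 in 28.1% and 24.9%. Without thinning these shares were 46.5% and 27.0% for Nkd1 and 40.1% and 34.2% for Tcf7, at a median depth of 238264 reads in Paneth-led and 316801 reads in ISC-led cells. Without the cells near the cut between classes, the mean over mice of Nkd1 was 8.34 CPM in Paneth-led and 8.15 CPM in ISC-led cells. Enterocyte-led cells had lower means of all 10 genes in 5 of the 5 mice with at least 5 such cells, with median log2 ratios between -2.31 and -1.12. These classes were cut from the same cells by scores, no gene of the 10 is in a marker list, and 78 cells lay within 0.5 log2 units of another class, so the values are descriptions without a test. How many of all genes were lower in Paneth-led or enterocyte-led cells was not counted. The counts therefore do not show a trait particular to these genes.

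The 13 tuft-led cells came from 6 mice, 6 of them from aged mouse 4. Over these cells 7 of the 10 genes had lower means than over ISC-led cells, among them Axin2 (157 and 250 CPM) and Igfbp4 (113 and 310 CPM), and Nkd1, Sox9 and Phlda1 had higher ones. These means pool cells of several mice, and how many of all genes were lower was not counted. Nkd1 averaged 95.7 CPM over the 13 cells and was read in 92.3% of them, against 9.20 CPM and 27.0% over ISC-led cells, and after thinning the shares were 84.6% and 21.6%. In aged mouse 4, the only mouse with at least 5 tuft-led cells, Nkd1 stood at 73.2 CPM in tuft-led and 3.50 CPM in ISC-led cells. Cd44, lower over the 13 cells, was higher in that mouse, at 190 CPM in tuft-led and 147 CPM in ISC-led cells. The other genes kept their direction there. Over all cells of each class, Sox9, which is known to be expressed in tuft cells, averaged 373 CPM in tuft-led and 238 CPM in ISC-led cells, and Phlda1 42.4 and 26.1 CPM. Tcf7 had no read in the 13 tuft-led cells, which allows a share of up to 23.1% (3 of 13 cells) from counting error alone, without the spread between mice.

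**Figure D4:**
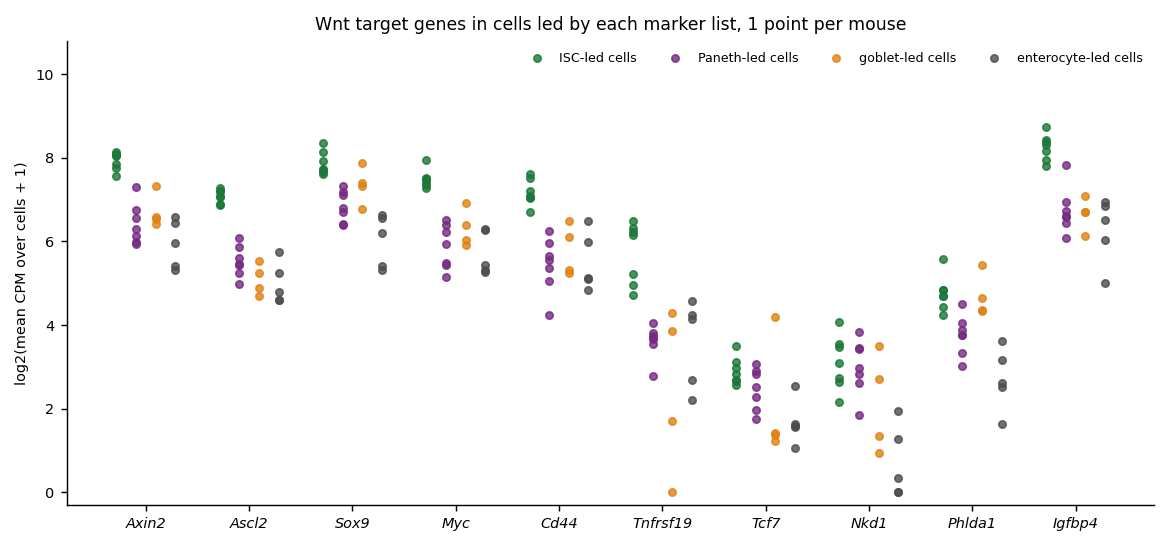
log2(mean CPM over cells + 1) of each gene in cells led by ISC, Paneth, goblet or enterocyte markers, 1 point per mouse with at least 5 such cells. The ISC-led points (green) lie above the Paneth-led points (purple) in each mouse for 7 genes, whereas the points of Tcf7, Nkd1 and Phlda1 mix.

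Across cells of a mouse most of these genes varied together to a small degree. Over the 45 pairs the Pearson r of log2(CPM + 1), averaged over 7 mice, ran from -0.06 (Myc and Nkd1) to 0.42 (Axin2 and Igfbp4) with a median of 0.16, and 29 pairs were positive in every mouse. In ISC-led cells the median was 0.12. Cells of a mouse share the animal and its sort, and these r values are descriptions. The r of pairs of other genes at similar levels was not computed, so the values do not show a trait particular to these genes. Igfbp4 had the highest r with Lgr5 (0.50), followed by Axin2 (0.46), Cd44 (0.38) and Tnfrsf19 (0.33), and Tcf7 had the lowest (0.02). With the mean of 10 proliferation genes, Ascl2 (0.19) and Myc (0.17) were positive in 7 of 7 mice, and Phlda1 (-0.16) and Nkd1 (-0.08) were negative in 7 of 7. That mean was taken from all reads of each cell, whereas the 10 genes and Lgr5 were thinned.

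**Figure D5:**
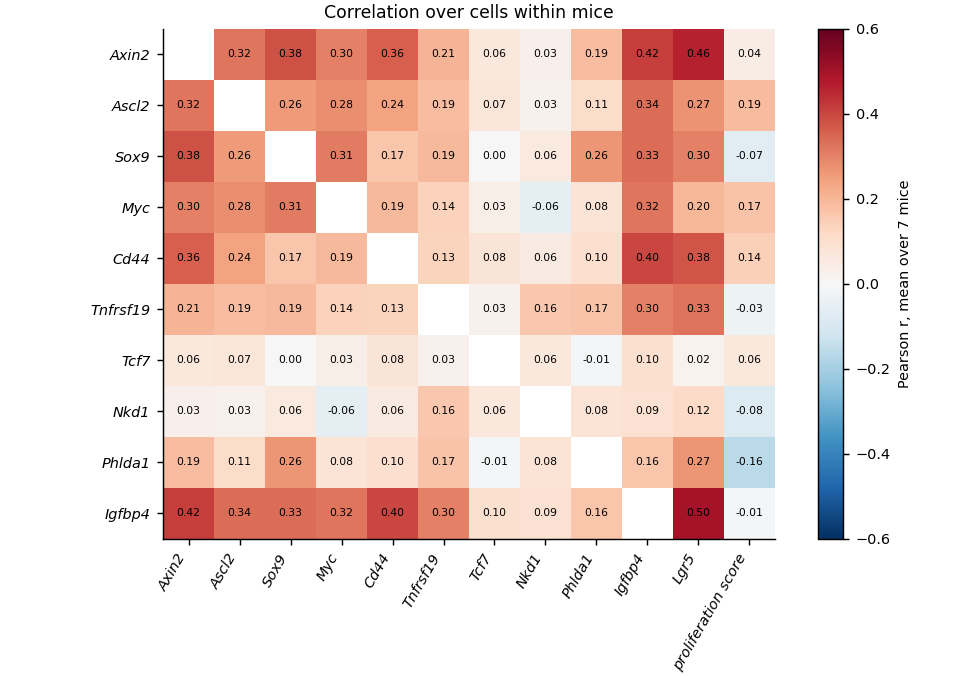
Pearson r over thinned cells, averaged over 7 mice, for each pair of Wnt target genes and for each gene with Lgr5 and with the mean of the proliferation list, on a colour scale from -0.6 to 0.6. The proliferation mean was taken from all reads of the same cells, without thinning. Axin2, Ascl2, Sox9, Myc, Cd44 and Igfbp4 form the darker block, with Axin2 and Igfbp4 at 0.42, and Tcf7 and Nkd1 stay near 0 with most genes.

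The genes most like each member over cells were taken as the 3 with the highest mean r among 13202 genes. No member was among the 3 of any other member. Olfm4, an ISC marker, was among the 3 for Axin2 (r = 0.53), Ascl2 (0.40), Tnfrsf19 (0.34) and Igfbp4 (0.59). Tnfrsf19 was also close to Lgr5 (0.33) and Rgmb (0.32), Ascl2 to Cps1 (0.39) and Cdca7 (0.38), and Sox9 to Smoc2 (0.43), Soat1 (0.42) and Kcnq1 (0.42). Cd44 was closest to Pabpc1 (0.45), Rpl3 (0.44) and Npm1 (0.43), genes of translation and ribosome assembly, and Igfbp4 also to Pabpc1 (0.63). Myc was closest to Aldh1b1 (0.43), Oat (0.42) and Pigr (0.42). Axin2 was closest to its antisense transcript Gm11670 (0.57) and then Ivns1abp (0.53), and Phlda1 to Gm28592 (0.56), Foxa3 (0.28) and Lgr5 (0.27). Nkd1 was closest to Pgc (0.20), the tuft cell channel gene Trpm5 (0.17) and Lbh (0.17), and Tcf7 to Gm26917, Ylpm1 and Ggct, all at an r of 0.14 or 0.15.

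Other genes of the pathway were read from the same fit, and none passed the adjustment. Of 25 other Wnt targets tested, 16 (64%) had lower estimates in aged mice, against 48.3% of all genes, and the median estimate was -0.18 on the log2 scale. Lgr5, Rnf43, Smoc2, Slc12a2, Rgmb and Cdca7 are also in the ISC marker list used to class cells. Each of these had a lower estimate, so the 64% is not separate from the ISC marker result. An unadjusted p under 0.05 was found for 2 of the 25, both lower, against 5.24% of all genes in either direction. These were Ephb3, a receptor that positions cells along the crypt, at -0.47 (SE 0.16, edgeR adjusted p = 0.81), and Rnf43, a ubiquitin ligase that removes Frizzled receptors, at -0.44 (SE 0.18, edgeR adjusted p = 0.91). Ephb3 had 61.0, 48.8 and 69.1 CPM in young mice and 42.9, 44.4, 38.2 and 46.1 CPM in aged mice, without overlap. Rnf43 had 316, 316 and 431 CPM in young mice and 304, 259, 210 and 269 CPM in aged mice, also without overlap. Jun (208 CPM per kb) and Smoc2 (140 CPM per kb) were the highest of this list, with log2 fold changes of 0.02 and -0.29. Smoc2 was also without overlap, with 1123, 1132 and 1011 CPM in young mice and 941, 851, 888 and 884 CPM in aged mice. Groups without overlap, in either direction, were found for 5.62% of all genes.

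Among 19 receptors tested, 15 had lower estimates in aged mice (78.9%, against 48.3% of all genes) and the median estimate was -0.33. Lgr5, Rnf43, Znrf3 and Fzd7 are on both this list and that of targets. Over all other pathway genes, each counted once, 48 of 86 (55.8%) had lower estimates, with a median of -0.04. Fzd6, a Frizzled receptor, and Rnf43 had an unadjusted p under 0.05, and Fzd6 had 11.0, 8.14 and 11.8 CPM in young and 6.12, 7.26, 5.71 and 8.50 CPM in aged mice (log2 fold change -0.58, SE 0.25). Rnf43 and Lgr5, at 45.9 and 33.3 CPM per kb, were the highest. Of 25 ligands and their processing factors 8 passed the filter on low counts, with Wls, the Wnt secretion factor, at 13.0 CPM per kb and Wnt3 at 2.80 CPM per kb, and none had an unadjusted p under 0.05. Of the secreted inhibitors 5 of 11 were tested, and Sfrp5 was the highest at 36.0 CPM per kb with a log2 fold change of 0.01. Sfrp2 followed at 0.27 CPM per kb, with 3.12 CPM in aged mouse 3 and under 1 CPM in the other 6 mice.

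Inside the cell, the 19 genes of beta-catenin and the destruction complex, Axin2 included, had a median estimate of 0.01 on the log2 scale, with 11 higher and 8 lower in aged mice and none at an unadjusted p under 0.05. Ppp2r1a, a phosphatase scaffold, was the highest at 63.4 CPM per kb (log2 fold change 0.08). Of the 19 TCF/LEF factors and partners tested, Tcf7 included, 10 were higher and 9 lower, with a median of 0.01. Tcf7l1 was the only one at an unadjusted p under 0.05, with a log2 fold change of 1.51 (SE 0.64, edgeR adjusted p = 0.93) at levels of 0.10 to 0.22 CPM in young and 0.17 to 0.78 CPM in aged mice. Hdac1 (48.3 CPM per kb, log2 fold change -0.06) and Tcf7l2, the main TCF factor of the intestinal epithelium (22.5 CPM per kb, log2 fold change 0.10), were the highest of that list.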

How the data were processed

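Single-end Smart-seq2 reads of sorted Lgr5-high cells were aligned by the authors to GRCm38 with HISAT2 and checked with Picard, and the submitters' processing notes also name HTSeq. The deposited values are raw read counts per gene and cell, not normalized and without molecular identifiers, so intervals from reads would describe counting alone. The strand setting of the counting is not given in the sources used here. Of 55471 gene identifiers, 55230 matched GENCODE release M21, and the others held 0.00278% of counts. Doublets were not called. Mice were taken from the labels, and lanes were inferred from a code in each cell name that the labels do not explain. The labels give no litter or batch of the mice, and p-values measure the spread between these 7 mice.

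Counts of 1836 cells were summed per mouse and tested with edgeR 4.0.16 in R 4.3.3 (quasi-likelihood test, TMM scaling, filterByExpr, Benjamini-Hochberg adjustment over all genes tested). DESeq2 1.42.0 and limma 3.58.1 were alternatives, with other scalings, filters, cell sets, thinning, equal weights of cells, a replicate or lane term and each mouse left out. With lane as a term, young mouse 2 entered in each of its 2 lanes, which overstates the replication. Young mouse 3 and aged mouse 4 were each alone in a lane, so they did not bear on the age estimate of that fit. CPM are TMM-normalised sums, and CPM in marker classes are means over cells. Shares and SDs used 1732 cells thinned to 100000 reads, with 104 too shallow, and a pseudocount of 1. Exact permutation tests of per-mouse values were two-sided. In simulated data for 3 against 4 mice, edgeR called 67.0% of 191 genes changed by 2 on the log2 scale (20402 genes tested) and 4.12% of 194 genes changed by 1 (20440 tested). The members and gene lists were chosen with earlier results of these data known. Named genes are the 10 members, Lgr5, the 3 genes most like each member among those read in at least 10% of thinned cells, and in each pathway list the genes with an unadjusted p under 0.05 and the 2 highest per kb. One gene that this rule names is not reported here. Tle5 was found as Aes.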

Additional observations from a re-analysis of the deposited data

Results flagged for a closer look

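Of 47 sets of 4 aged mice tested for a single mouse far from the others, 7 were flagged because the gap to the nearest mouse exceeded Dixon's critical share of the range, where chance flags about 1 in 20. The young mice were too few for this test. In aged mouse 1, Myc was high in level (303 CPM, the others 151 to 176) and in its share of cells with a read (97.6%), and low in its cell-to-cell SD (1.67). Its top cell held 8.93% of its Myc reads. Aged mouse 1 also stood apart for Nkd1 (12.9 CPM) and for the percentage of cells with a read of 8 or more of the 10 genes (62.0%). In aged mouse 3, the SD of Tcf7 over cells (2.09) and the level of Sfrp2 (3.12 CPM) stood apart from those of the other aged mice, and it was the mouse in which the only 3 stromal-led cells were found. The part of these cells in the level of Sfrp2 was not tested.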

How the results depend on the processing

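No member was called at an adjusted p under 0.05 under any of the 19 alternatives, and Tnfrsf19, Cd44, Sox9, Nkd1 and Phlda1 kept their direction in all of them, though not their size: Sox9 went from -0.20 to -0.011 with lane as a term and -0.026 without young mouse 1, Cd44 from -0.33 to -0.15 without young mouse 2, and Nkd1 from -0.60 to between -0.93 and -0.34 with a mouse left out. The log2 fold change of Tnfrsf19 ranged from -1.48 to -0.82 and its unadjusted p was under 0.05 in 18 of 19. Signs turned for Ascl2 in ISC-led cells (0.0072) and, with cells weighted equally, for Myc (-0.044) and Tcf7 (-0.047). They also turned with a mouse left out, with ranges of -0.15 to 0.020 for Ascl2 (positive without young mouse 1 or aged mouse 2), -0.28 to 0.047 for Axin2, -0.39 to 0.0053 for Igfbp4 and -0.048 to 0.74 for Tcf7 (turned without aged mouse 3), and -0.11 to 0.29 for Myc (turned without aged mouse 1). Without the cell with the most Tcf7 reads of each mouse, chosen after seeing the data, the difference in mean log2 CPM went from 0.27 to -0.14. Shares of cells turned sign for Tcf7 when thinned to 50000 reads (-1.35 points) or counted from 5 reads (-1.21), and in ISC-led cells for Ascl2 (1.49), Sox9 (0.33) and Myc (0.99). With a mouse left out they turned for Ascl2 (1.86 without young mouse 2, 0.59 without aged mouse 4), Sox9 (0.20 without aged mouse 4), Myc (0.13 without young mouse 3, 0.094 without aged mouse 2) and Tcf7 (-1.98, -0.11 and -0.82 without young mouse 3, aged mouse 2 and aged mouse 3). The SD over cells turned for Sox9 with log2(CPM/10 + 1) (-0.031) and in ISC-led cells for Sox9 (-0.13) and Myc (-0.14). With a mouse left out it turned for 7 genes, reaching 0.12 for Ascl2, 0.0095 for Tnfrsf19 and 0.018 for Phlda1 (without young mouse 1), 0.0074 for Tcf7 and -0.037 for Myc (without young mouse 2), -0.030 for Igfbp4 (without aged mouse 3) and -0.066 for Sox9 (without aged mouse 4). The cause was not tested. Members at an unadjusted p under 0.05 numbered 2 in limma voom, 5 with cells weighted equally, 2 with lane as a term and 0 to 2 with a mouse left out. All genes called numbered 177 in DESeq2, 2 in limma voom, 22 without the filter, 13 after thinning, 10 with equal weights, 1 with lane as a term and 0 to 8 with a mouse left out. With the replicate number as a paired term (replicate block) 2 genes were called and Tnfrsf19 was at -1.18. Same-numbered mice did not deviate together (r of -0.11, 0.19 and -0.23), and 1 of 3 young mice correlated best with its own number. Tcf7 and Nkd1 were read in a minority of thinned cells in each mouse.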
